A study of Brachypodium distachyon with 35 samples.

Results

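Described here are 35 of the 96 bZIP genes of the model grass Brachypodium distachyon, whose transcripts were quantified by real-time PCR (qPCR) in stressed seedlings and in 4 organs. The members were chosen from the supplementary list of gene structures, by where introns cut the part of the bZIP domain that holds the basic region and the adjoining hinge. Pattern a (17 genes) has an intron in the basic region alone, pattern g (1 gene) is an uncommon arrangement with more than 1 intron, and pattern h (17 genes) has no intron in these regions. Of the 53 genes with pattern a, f, g or h, 18 were taken out beforehand, largely for their responses in these samples, among them the only gene with pattern f. The 35 genes are therefore what those choices left over, and their values are given as a description beside the same quantity over all 96 genes, with no test of members against the rest.

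Seedlings of the inbred line Bd21-3 were exposed to 5 environmental factors (cold, heat, NaCl, H2O2 and polyethylene glycol (PEG), at 1 h and 6 h), 5 heavy metals (Cd, Cu, Mn, Pb and Zn, each for 6 h and 24 h) or 4 phytohormones (salicylic acid (SA), the cytokinin 6-benzylaminopurine (6-BA), abscisic acid (ABA) and methyl jasmonate (MeJA), at 1 h and 6 h). Root, stem, leaf and early spikelet were taken from plants without treatment. The labels give an age of 20 days, or 40 days for the spikelet, whereas the methods give younger plants. Each condition has 1 sample, and 3 untreated seedling samples, CK1, CK2 and CK3, serve as controls. By the labels, CK1 is the control of the organs, of SA and 6-BA and of the environmental factors except NaCl 6 h. CK3 is that of NaCl 6 h and all metals, and CK2 that of ABA and MeJA.

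Transcription factors of the bZIP family bind DNA as dimers, through a basic region that contacts the DNA and a leucine zipper that holds the 2 partners together. In other plants they act in light signalling, seed storage, pollen development, hormone responses and the unfolded protein response of the endoplasmic reticulum (ER). By their homologues in rice and Arabidopsis, the members comprise 3 HY5-like genes, 4 RISBZ-like genes, 7 RF2a and VIP1-like genes, 2 AtbZIP34-like genes, 2 homologues of ER stress factors, 3 OsbZIP44-like genes, 11 genes for short proteins of pattern h and 3 others. The encoded proteins have 126 to 642 amino acids, with a median length of 312 in pattern a and 182 in pattern h, and the genes lie on all 5 chromosomes.

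Levels were read as Ct, the number of PCR cycles after which fluorescence passed the detection threshold, so that 1 cycle less means about 2-fold more starting cDNA. The log2 change is –ΔΔCT, taken relative to BdGAPD, a glyceraldehyde-3-phosphate dehydrogenase gene, and to the labelled control. "At least 2-fold higher" means a log2 change of 1 or more, and "at most 0.5-fold" one of -1 or less. A single value per condition carries no replicate check. The only repeats in the files are 8 pairs of genes with identical primers, which put the error of the wells in a log2 change at an SD of 0.97. By pair the SD ran from 0.42 to 1.785. Both wells of a pair share 1 Ct of BdGAPD per sample, so this error leaves out that of the BdGAPD wells. It also leaves out the spread between plants and samples, which was not measured. Late amplification, at a Ct of 35 or above, occurred in 12 members, most often in BdbZIP60 (25 of 34 samples) and BdbZIP14 (22). BdGAPD itself had a Ct of 17.90, 15.72 and 20.08 in CK1, CK2 and CK3. Relative to it, 24 of the 35 members were at least 2-fold higher in CK3 than in CK1, and the median member by 2.27, beside 74.0% of all genes and a median of 2.59. PEG 1 h was not used, because its 97 Ct values are those of H2O2 6 h, so 27 treated samples remain. Rows of the Ct table are plate wells and were named through the supplementary table of stress fold changes. The supplementary table of organ values names another well for every member, and under that naming same-primer genes differed in Ct by medians of 1.24 to 13.6 over the samples, against 0.26 to 1.38 under the naming used here. The panel holds bZIP genes and BdGAPD alone, so organ labels could not be checked against marker genes. In whole seedlings and organs, fewer cells of a type and less RNA per cell cannot be told apart.

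Over the 27 treated samples the members gave 945 values. At least 2-fold higher than the control were 144 of them (15.2%), beside 17.5% of the values of all 96 genes, and 309 (32.7%) were at most 0.5-fold, beside 31.9%. Lower values were thus about as common among the members as in the whole panel. By class, 46 of 315 values were at least 2-fold higher under environmental factors (19.0% of all genes' values) and 104 at most 0.5-fold (30.9%). The metals gave 46 of 350 higher (12.9%) and 162 lower (47.0%), and the phytohormones 52 of 280 higher (21.5%) and 43 lower (14.3%). The median over members of the class mean was -0.38 in the environmental samples, -0.89 in the metal samples and 0.13 in the hormone samples, beside -0.20, -0.90 and 0.20 over all genes. NaCl 6 h, set against CK3, stood apart within its class, with 22 members at most 0.5-fold (71.9% of all genes) whereas the other 8 samples ran from 3 in NaCl 1 h (9.38%) to 16 in heat 1 h (37.5%). Set against CK1, the control of NaCl 1 h, it had 8 such members (16.7%) and a median of 0.07 in place of -1.76. The grid of values by gene and sample holds these values gene by gene.

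**Figure D1:**
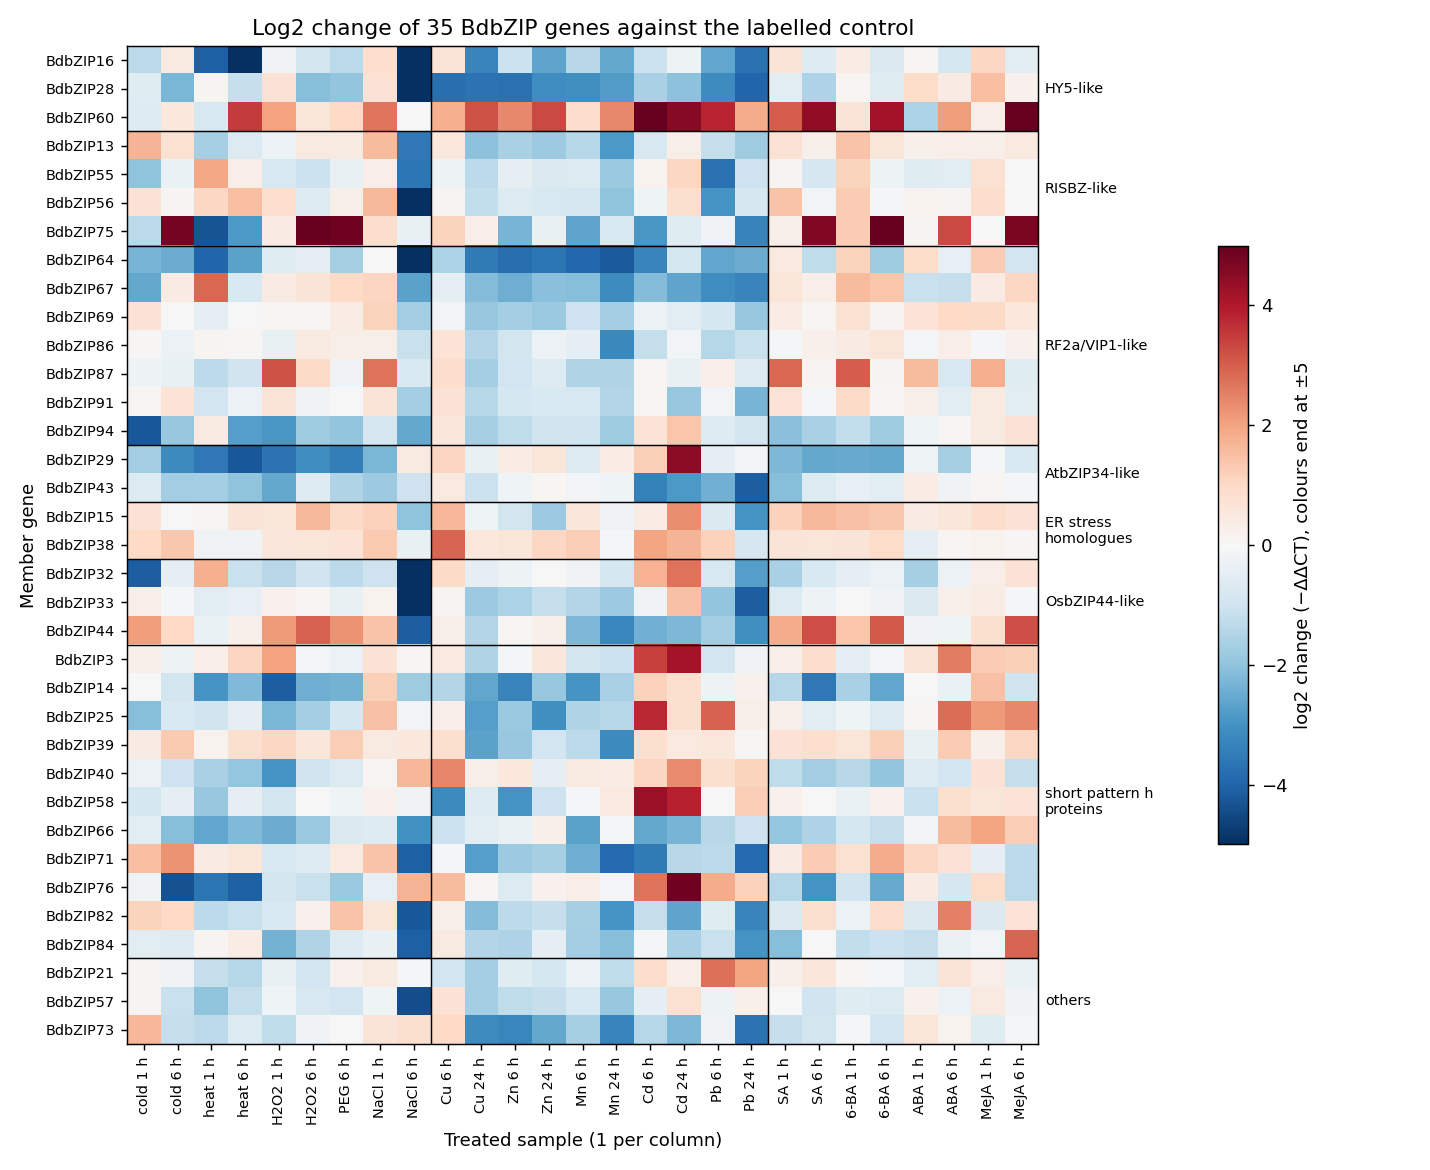
Log2 change (–ΔΔCT, colour) of the 35 genes (rows, by gene group) in the 27 treated samples (columns, environmental factors, heavy metals and phytohormones from left to right), each against its labelled control. BdbZIP60 is red in most columns, BdbZIP75 is red at 6 h in 7 samples and blue in heat at both times, and the NaCl 6 h column holds the deepest blues, down to -6.75 for BdbZIP64 (-1.08 against CK1).

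The 3 HY5-like genes resemble HY5 of Arabidopsis, a bZIP factor of light signalling. BdbZIP60 (bradi3g07540, chromosome 3) was the highest member of the metal class, with log2 changes from 0.89 after 6 h of Mn to 5.01 after 6 h of Cd and a median of 2.80, and 9 of the 10 values were 1 or more. All 10 values were above 0. Under phytohormones it ran from -1.60 after 1 h of ABA to 5.04 after 6 h of MeJA, with a median of 2.56, and under environmental factors from -0.81 after 1 h of heat to 3.51 after 6 h of heat, with a median of 0.60. Its Ct in CK1, CK2 and CK3 was 38.77, 36.87 and 39.29, near the end of the run, so these changes start from a barely measured control.

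BdbZIP28 (bradi2g04590, chromosome 2) took the opposite direction under metals. It was at most 0.5-fold in all 10 samples, from -3.98 after 24 h of Pb to -1.61 after 6 h of Cd with a median of -3.11, and was the only one of the 96 genes to be so (1.04%). Under environmental factors its 9 values ran from -6.30 in NaCl 6 h (-1.01 against CK1) to 0.73 in NaCl 1 h, with a median of -1.17. Under phytohormones they ran from -1.55 after 6 h of SA to 1.51 after 1 h of MeJA around a median of 0.16. Its level was 5.29 higher in CK3 than in CK1, and the metal mean of -3.09 against CK3 was 0.92 against the mean of the 3 controls. Its Ct was late in 8 samples, among them Cu 6 h (35.05), Cd 6 h (35.27) and Pb at both times (36.44 and 35.10).

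BdbZIP16 (bradi1g36750, chromosome 1) stood at -5.54 in heat 6 h, -4.10 in heat 1 h and -5.83 in NaCl 6 h, the last being -0.33 against CK1, while cold 6 h (0.46), NaCl 1 h (0.84) and H2O2 1 h (-0.16) lay near 0. The values of heat were thus low at both times. Under metals it was at most 0.5-fold in 8 of 10 samples, with a mean of -1.80 that was 1.98 against the mean of the 3 controls, and under phytohormones its mean was -0.08.

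RISBZ factors of rice activate storage protein genes in the endosperm. BdbZIP75 (bradi4g02570, chromosome 4) was grouped with the RISBZ-like members here, although the rice homologue listed for it, OsbZIP88, carries no RISBZ name. It had the widest spread of all members after the median of the panel was subtracted from each sample (SD 2.68 over the 27 samples). After 6 h its log2 change was 4.78 in cold, 5.26 in H2O2, 4.85 in PEG, 4.62 in SA, 5.42 in 6-BA, 3.32 in ABA and 4.70 in MeJA. After 1 h it was -1.35 in cold, 0.40 in H2O2, 0.87 in NaCl, 0.29 in SA, 1.27 in 6-BA, 0.15 in ABA and -0.02 in MeJA. These 7 values, which leave out heat and NaCl, lay above every value at 1 h. The 6 h values of heat and NaCl, against the labelled controls, lay among those at 1 h. Heat was the exception at both times, with -4.33 and -2.89, and NaCl 6 h gave -0.37 against CK3 and 4.43 against CK1. Under metals BdbZIP75 ranged from -3.34 after 24 h of Pb to 1.12 after 6 h of Cu, with a median of -0.71.

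BdbZIP13 (chromosome 1), BdbZIP55 and BdbZIP56 (both chromosome 3) had means of 0.55, -0.03 and 0.46 under phytohormones and were below 0 on average under metals (-1.28, -0.89 and -0.86), though above 0 against the mean of the 3 controls (0.99, 1.71 and 2.99). BdbZIP55 (bradi3g05577) and BdbZIP56 (bradi3g05580) are listed at overlapping positions. Their values lay close under metals, with -0.27 and 0.13 after 6 h of Cu, -3.74 and -2.96 after 6 h of Pb and 1.02 and 0.81 after 24 h of Cd. They were far apart in cold 1 h, at -2.01 for BdbZIP55 and 0.71 for BdbZIP56. Which transcript each primer pair reads where the genes overlap was not tested.

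Rice RF2a is a bZIP activator of a vascular promoter, and VIP1 of Arabidopsis takes part in osmotic signalling and in infection by Agrobacterium. All 7 RF2a and VIP1-like members had a mean below 0 under metals, beside 78.1% of all genes, with 40 of their 70 values at most 0.5-fold, beside 47.0% of the metal values of all genes. Against the mean of the 3 controls, 6 of the 7 means were above 0, which was not counted over all genes. BdbZIP64 (bradi3g31890, chromosome 3), a homologue of OsbZIP78 and AtbZIP29, was lowest. It ran from -4.21 after 24 h of Mn to -0.87 after 24 h of Cd, with a median of -3.42, and was at most 0.5-fold in 9 of 10 samples. Under environmental factors it ran from -6.75 in NaCl 6 h to 0.02 in NaCl 1 h with a median of -2.31, and under phytohormones its mean was -0.08. Its level was 5.67 higher in CK3 than in CK1, and against the mean of the controls the metal mean of -2.99 was 0.96. Its Ct was late in 11 samples, among them Cd 6 h (37.18) and Pb 6 h (36.11).

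BdbZIP67, a homologue of OsbZIP75, was also at most 0.5-fold in 9 of 10 metal samples, from -3.29 to -0.48 with a median of -2.30. In cold 1 h and heat 1 h it stood at -2.57 and 2.88, whereas cold 6 h and heat 6 h gave 0.42 and -0.75. BdbZIP86, the other homologue of OsbZIP75, stayed within 0.46 of 0 in 8 of the 9 environmental samples, and BdbZIP69, a homologue of OsbZIP68, had the smallest spread of all members after subtraction of the panel median (SD 0.46). BdbZIP91, whose homologue is VIP1, ranged from -2.31 after 24 h of Pb to 0.94 after 1 h of 6-BA.

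BdbZIP87 (bradi4g35370, chromosome 4), the second homologue of OsbZIP68, was high at 1 h. Its values then were 3.18 in H2O2, 2.73 in NaCl, 2.89 in SA, 3.03 in 6-BA, 1.58 in ABA and 1.82 in MeJA, with -0.25 in cold and -1.31 in heat. At 6 h the 9 values of environmental factors and phytohormones lay between -1.01 in heat and 0.94 in H2O2, below all 6 high values of 1 h. Of the 1 h values left out of these 6, cold lay within that range and heat below it. BdbZIP94 (bradi5g14497, chromosome 5) was at most 0.5-fold in 7 of 9 environmental samples, from -4.25 in cold 1 h to 0.46 in heat 1 h with a median of -1.99. It shares its primers with BdbZIP95, which is no member and whose values ran from -1.80 to -0.37 in the same samples apart from -3.19 in NaCl 6 h. In cold 1 h the pair differed by 2.89, the most of all treated samples, and over all samples their Ct differed by a median of 0.42.

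AtbZIP34 acts in the pollen of Arabidopsis. Its homologue BdbZIP29 (bradi2g06790, chromosome 2) was the lowest member under environmental factors (mean -2.76) and under phytohormones (mean -1.57). Against the mean of the 3 controls these means were -0.83 and -0.49, and other members were lower, such as BdbZIP64 at -3.41 under environmental factors and BdbZIP33 at -2.39 under phytohormones. Its values were -1.72 and -3.18 in cold, -3.56 and -4.25 in heat and -3.68 and -3.12 in H2O2, each at 1 h and 6 h. PEG 6 h gave -3.45, and NaCl gave -2.30 at 1 h and 0.45 at 6 h. All samples but NaCl 6 h were at most 0.5-fold, and against CK1 NaCl 6 h was too, with -4.14.

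Under phytohormones BdbZIP29 was -2.24 and -2.57 in SA, -2.53 and -2.54 in 6-BA, -0.20 and -1.66 in ABA and -0.04 and -0.75 in MeJA. SA and 6-BA, set against CK1, were all lower than ABA and MeJA, set against CK2, and its level in CK2 was 2.73 lower than in CK1. Under metals it ran from -0.68 after 6 h of Mn to 4.49 after 24 h of Cd with a median of 0.37. These values are against CK3, where its level stood at -4.59 relative to CK1 and its Ct was late, at 36.42. BdbZIP43, homologue of AtbZIP61, had a value below 0 in all 9 environmental samples, from -2.54 to -0.65 with a median of -1.68. Under metals its values were -3.36 and -2.87 in Cd and -2.42 and -4.12 in Pb, but between -1.09 and 0.47 in Cu, Zn and Mn.

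BdbZIP15 and BdbZIP38 are homologues of factors that restore protein folding in the ER. BdbZIP15 (bradi1g35790) is a homologue of OsbZIP50, whose transcript is spliced under ER stress in rice, and BdbZIP38 (bradi2g25400) of OsbZIP39 and the membrane-bound AtbZIP17 and AtbZIP28. BdbZIP38 was the only member with no value at most 0.5-fold in any of the 27 samples. It was at least 2-fold higher in 6 of 10 metal samples, with 2.91 and 0.54 in Cu, 0.61 and 1.04 in Zn, 1.22 and -0.09 in Mn, 1.98 and 1.68 in Cd and 1.17 and -0.83 in Pb, at 6 h and 24 h. The 6 h value was the higher in each metal but Zn. BdbZIP15 was above 0 in all 8 hormone samples, from 0.42 after 1 h of ABA to 1.62 after 6 h of SA with a median of 1.02, while under metals it ranged from -2.97 after 24 h of Pb to 2.34 after 24 h of Cd.

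The OsbZIP44-like genes, of pattern h, are named here only for their rice homologue. BdbZIP44 (bradi2g52590, chromosome 2) was at least 2-fold higher in 6 of 9 environmental samples, with 2.09 and 1.01 in cold, 2.14 and 2.96 in H2O2, 2.25 in PEG 6 h and 1.44 in NaCl 1 h. Heat gave -0.34 and 0.24, and NaCl 6 h -4.12 against CK3 and 2.22 against CK1. Under phytohormones it was 1.84 and 3.23 in SA, 1.40 and 3.07 in 6-BA, -0.19 and -0.20 in ABA and 0.79 and 3.24 in MeJA, and ABA was the only hormone with both values near 0. Under metals it was at most 0.5-fold in 7 of 10 samples, with a mean of -1.58. Its level was 6.34 higher in CK3 than in CK1, and against the mean of the 3 controls its means were 2.46 under metals and -0.74 under environmental factors.

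BdbZIP32 and BdbZIP33 (bradi2g21197 and bradi2g21200) are listed at overlapping positions on chromosome 2. Their primers are identical, so their wells are repeats as far as the primers go. Their Ct differed by a median of 0.56, and no treated sample put them past 2-fold in opposite directions. In cold 1 h, however, the log2 changes were -4.14 and 0.34, a difference of 4.48 that was the largest of all treated samples. Of the 8 same-primer pairs of the panel, 4 had their largest difference in cold 1 h. In those 4 pairs, that of BdbZIP94 among them, values of this sample thus repeated poorly between wells. BdbZIP67 and BdbZIP55 have no same-primer partner, so how well their cold 1 h values repeat is unknown. In heat 1 h the wells also lay apart, in the reverse order. There BdbZIP32 and BdbZIP33 stood at 1.78 and -0.55, and BdbZIP94 and BdbZIP95 at 0.46 and -1.66. The heat 1 h value of BdbZIP94 carries the same limit, and that of BdbZIP67 has no repeat.

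The 11 genes for short proteins of pattern h had a median of -0.86 under environmental factors, -0.73 under metals and 0.13 under phytohormones. Of their class means, 3, 4 and 6 were above 0 in that order. BdbZIP76 (bradi4g04720, chromosome 4), whose rice homologue is an ocs element binding factor, was the second highest member under metals, at 2.70 and 4.86 in Cd, 1.85 and 1.14 in Pb, 1.58 and 0.06 in Cu, -0.68 and 0.23 in Zn and 0.32 and -0.09 in Mn. Its mean of 1.20 was 0.55 without Cd. Its Ct was 35.82 in CK3, 36.28 in Cd 6 h and 36.78 in Pb 6 h, so these values start from a late control. It was at most 0.5-fold in 5 of 9 environmental samples, down to -4.34 after 6 h of cold and -4.07 after 6 h of heat, and in 5 of 8 hormone samples. Its level was 4.07 lower in CK3 than in CK1, and against the mean of the controls the metal mean was -1.25.

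BdbZIP40 had metal values from -0.44 to 2.44 and a mean of 0.90. It likewise had a level 4.09 lower in CK3 than in CK1, and against the mean of the controls its metal mean was -1.52. Its Ct was 37.65 in CK3 and 39.75 in Cd 6 h, and that of BdbZIP3 was 35.71 in CK3. The metal values of both genes thus also start from a late control. Under Cd, BdbZIP3 reached 3.40 and 4.16, BdbZIP58 4.26 and 3.89 and BdbZIP25 3.76 and 0.80, against values from -3.19 to 0.58 in Cu, Zn and Mn. In Pb, BdbZIP25 was 2.93 at 6 h and BdbZIP58 1.23 at 24 h, while the other values of these 3 genes lay between -0.97 and 0.29. In Cd the Ct of BdGAPD was 23.24 and 22.04, later than in any other sample but Pb 6 h (22.89), and its part in these values was not tested. At both times of Cd, 8 members were at least 2-fold higher (21.9% of all genes) and 8 at most 0.5-fold (21.9%).

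BdbZIP14 was low under environmental factors (mean -1.73) and the second lowest under phytohormones, from -3.57 after 6 h of SA to 1.46 after 1 h of MeJA with a median of -1.22. Its hormone mean of -1.14 was -0.68 without SA. BdbZIP66 had 9 of 9 environmental values below 0, from -3.04 to -0.52, and hormone values of -1.93 and -1.53 in SA against 1.96 and 1.24 in MeJA. BdbZIP71 and BdbZIP82 were at most 0.5-fold in 9 and 8 of the 10 metal samples, and BdbZIP84 in 7, but their means against the mean of the controls were 0.08, 1.66 and 1.85. BdbZIP39 had a mean of 0.72 under environmental factors, 0.69 under phytohormones and -0.73 under metals.

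Of the 3 other members, BdbZIP57 (bradi3g06160, chromosome 3) is the only one with pattern g. It had no value past 2-fold upwards in the 27 samples and 8 at most 0.5-fold, from -4.45 in NaCl 6 h (-0.56 against CK1) to 0.75 after 24 h of Cd. BdbZIP21 was 2.74 and 1.98 in Pb, its only values of at least 2-fold, and BdbZIP73 was at most 0.5-fold in 8 of 10 metal samples (mean -2.04). Patterns a and h did not separate in these means. Under environmental factors the median was -0.12 in pattern a and -0.76 in pattern h, under metals -0.89 and -1.17, and under phytohormones 0.19 and 0.06, and in each class the ranges of both patterns overlapped.

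To ask whether a gene differed between classes, treatments were taken as units, each the mean of its time points, and classes were set against each other by a two-sided exact permutation test per gene, adjusted by Benjamini-Hochberg over all 96 genes. Metals were sampled at 6 h and 24 h, the other classes at 1 h and 6 h, and PEG was used at 6 h alone. In contrasts with metals, class and time therefore cannot be told apart. Treatments of a class mostly share a control sample, whose error moves them together, so the p-values are too small as measures of the class. Even so, no member passed an adjusted threshold of 0.05 in any contrast (0.0% of all genes). The smallest p that the designs allow is 0.00794, and the smallest adjusted p was 0.0544 for metals against environmental factors, 0.305 for phytohormones against environmental factors and 0.0508 for phytohormones against metals. Unadjusted, 14, 3 and 17 members had a p of 0.05 or less by this exact test, beside 38.5%, 11.5% and 44.8% of all genes.

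Between metals and environmental factors, the treatments of 6 members did not overlap (14.6% of all genes), with 2 higher and 4 lower under metals. The largest difference upwards was 3.47 for BdbZIP29 (0.64 over 5 metals, -2.83 over 5 environmental factors, exact permutation p = 0.0079, adjusted p = 0.0544), and the largest downwards was -2.58 for BdbZIP44 (exact permutation p = 0.0397, adjusted p = 0.109). The treatments of BdbZIP44 did overlap. Besides BdbZIP29, the members without overlap were BdbZIP60 (1.94), BdbZIP67 (-2.51), BdbZIP71 (-2.43), BdbZIP73 (-1.88) and BdbZIP69 (-1.24). Between phytohormones and metals 15 members did not overlap (31.2% of all genes), 13 of them higher under phytohormones, with the largest difference in BdbZIP75 (3.64, exact permutation p = 0.0159, adjusted p = 0.0544). BdbZIP29 and BdbZIP40 were the 2 that were lower (-2.21 and -1.95). The times of these classes differ too, and for BdbZIP75 the mean difference between 6 h and 1 h was itself 3.44.

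**Figure D2:**
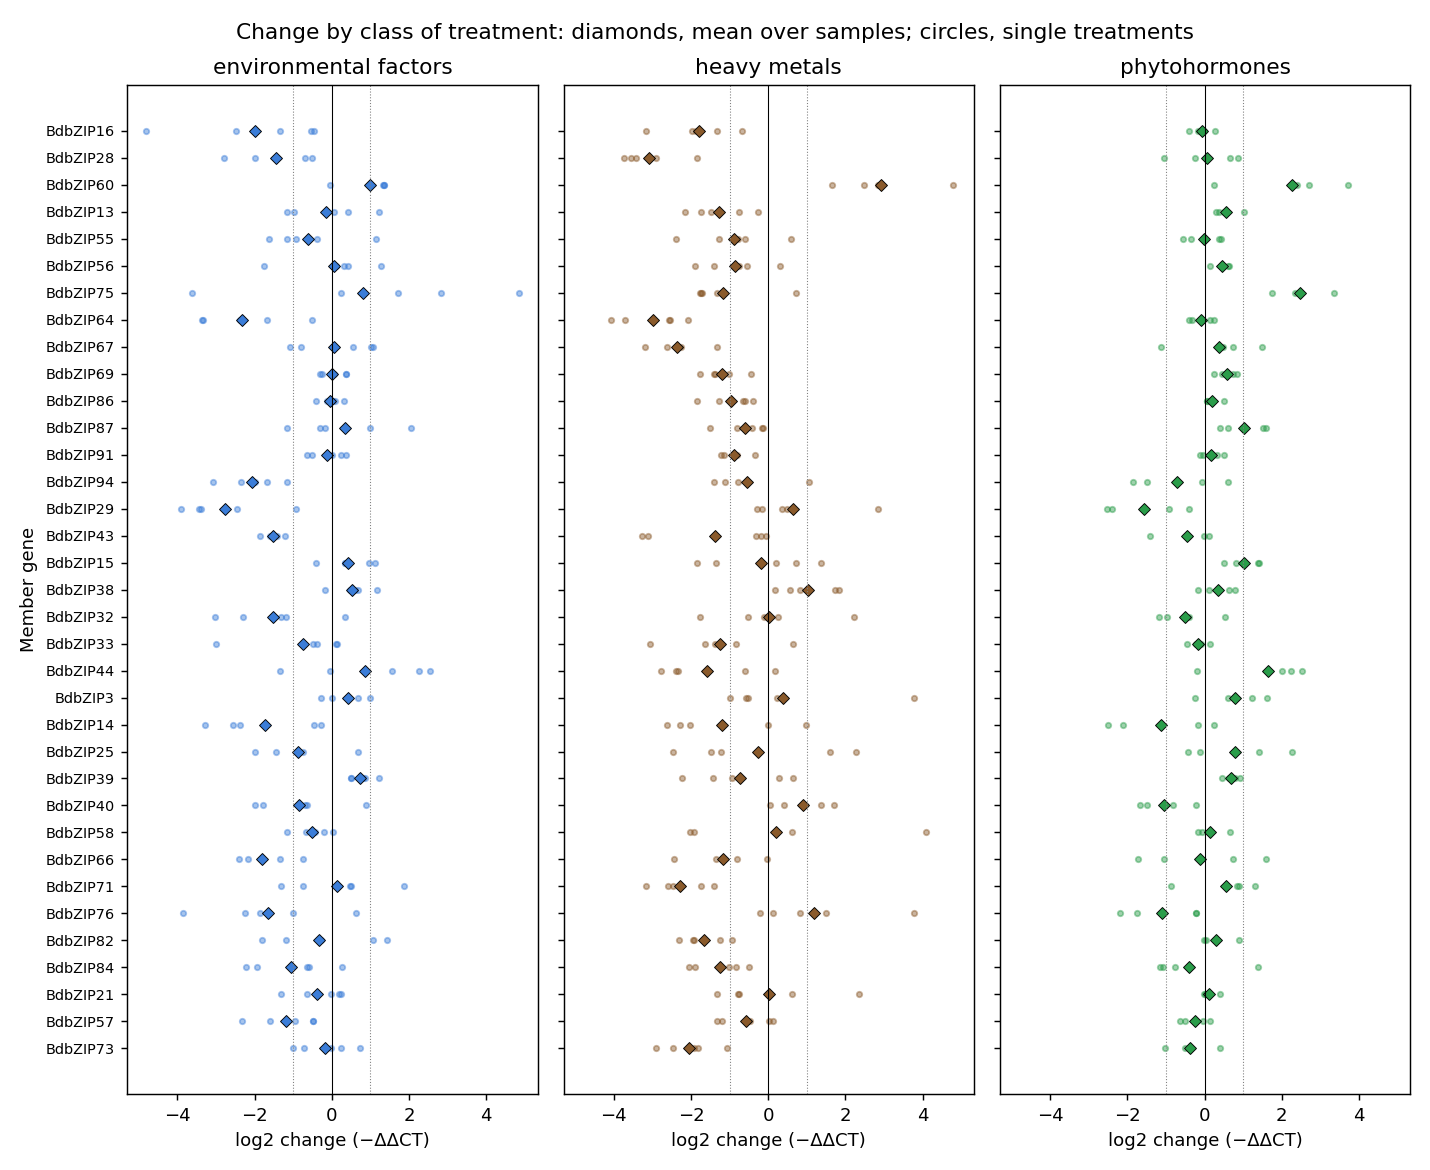
Log2 change (–ΔΔCT, x axis) of each of the 35 genes (y axis) in 3 panels, 1 per class of treatment. Diamonds are means over the samples of a class, circles are single treatments averaged over their time points, and dotted lines mark 2-fold and 0.5-fold. BdbZIP28 and BdbZIP64 lie far to the left and BdbZIP60 far to the right under metals.

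These contrasts hold the difference of the controls as well. When levels relative to BdGAPD were compared directly, with no control subtracted, 22 members passed the adjusted threshold between metals and environmental factors (52.1% of all genes), 19 of them higher and 3 lower in the metal samples, and 20 members passed between phytohormones and metals (49.0%), 2 of them higher and 18 lower under phytohormones. BdbZIP28, lower under metals by 1.60 after subtraction of its controls, was higher by 3.16 without them, and the difference of BdbZIP44 was 3.13 (exact permutation test, adjusted p = 0.0162) in place of -2.58. For BdbZIP29 the difference of 3.47 became -0.66, and for BdbZIP75 that between phytohormones and metals, 3.64, became -0.96. Of the 26 members whose metal mean was below 0 against CK3, 21 were above 0 once the 3 controls were averaged as the base, and 3 of the 9 above 0 were below it. These sign changes were not counted over all genes, of which 74.0% were at least 2-fold higher in CK3 than in CK1. They therefore do not set the members apart from the panel. BdbZIP60 was above 0 with either control (2.92 and 4.12), and BdbZIP73 below 0 (-2.04 and -2.97). With 1 sample of CK3, its own error and the response to the metals cannot be told apart.

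**Figure D3:**
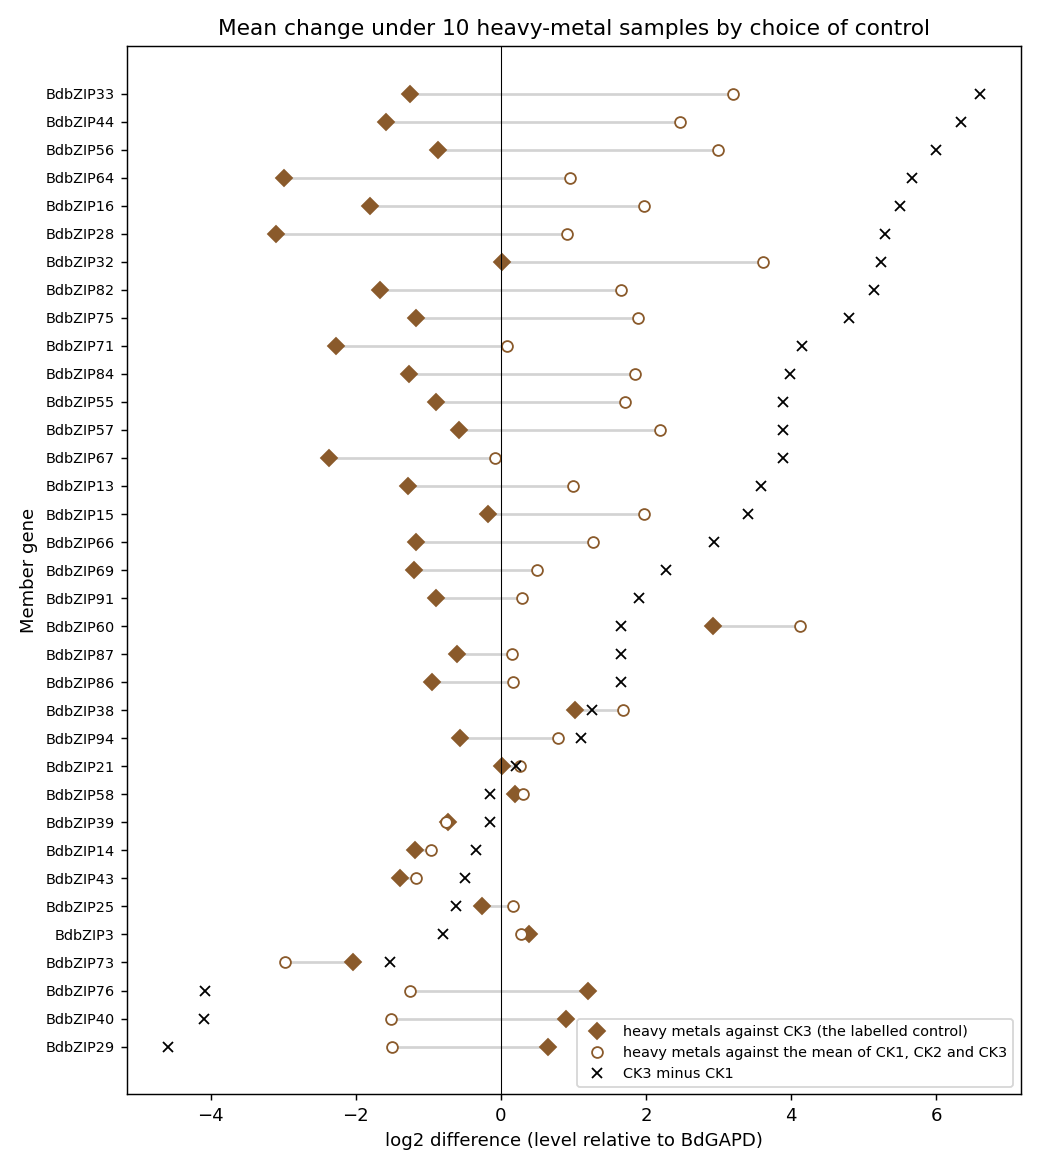
Mean log2 change of each gene (y axis) over the 10 heavy-metal samples against CK3 (filled diamonds) and against the averaged 3 controls (open circles), with the difference in level between CK3 and CK1 (crosses). Genes run from BdbZIP29 (difference of -4.59) at the bottom to BdbZIP33 (difference of 6.60) at the top, and wherever a cross lies more than 1 from 0, the open circle lies to the same side of the diamond.

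Times were compared within 8 treatments that have both 1 h and 6 h, by an exact two-sided sign-flip permutation test over treatments. In all but NaCl the same control serves both times and drops out of the difference. No member and no other gene passed the adjusted threshold by this exact test (0.0% of all genes, smallest adjusted p = 0.250), and 5 members had an unadjusted p of 0.05 or less, beside 13.5% of all genes. BdbZIP28 was lower at 6 h in 8 of 8 treatments, with differences from -7.03 in NaCl to -0.51 in ABA and a mean of -2.04 (exact p = 0.0078, adjusted p = 0.250). Without NaCl the mean was -1.33. At 6 h its Ct was late in cold (35.47), SA (35.32) and MeJA (35.37).

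BdbZIP75 was higher at 6 h in 7 of 8 treatments, with a mean difference of 3.44 (exact p = 0.0156, adjusted p = 0.250), and in 8 of 8 with a mean of 4.04 when NaCl 6 h was set against CK1. BdbZIP87 was lower at 6 h in 7 of 8, with a mean of -2.00, and BdbZIP56 in 7 of 8, with a mean of -1.52 that was -0.77 without NaCl (exact p = 0.0234 and adjusted p = 0.273 for both). BdbZIP39 was higher in 7 of 8 by a mean of 0.54. The differences of BdbZIP75 were 6.13 in cold, 4.86 in H2O2, 4.33 in SA, 4.15 in 6-BA, 3.17 in ABA and 4.72 in MeJA, with 1.44 in heat and -1.24 in NaCl.

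**Figure D4:**
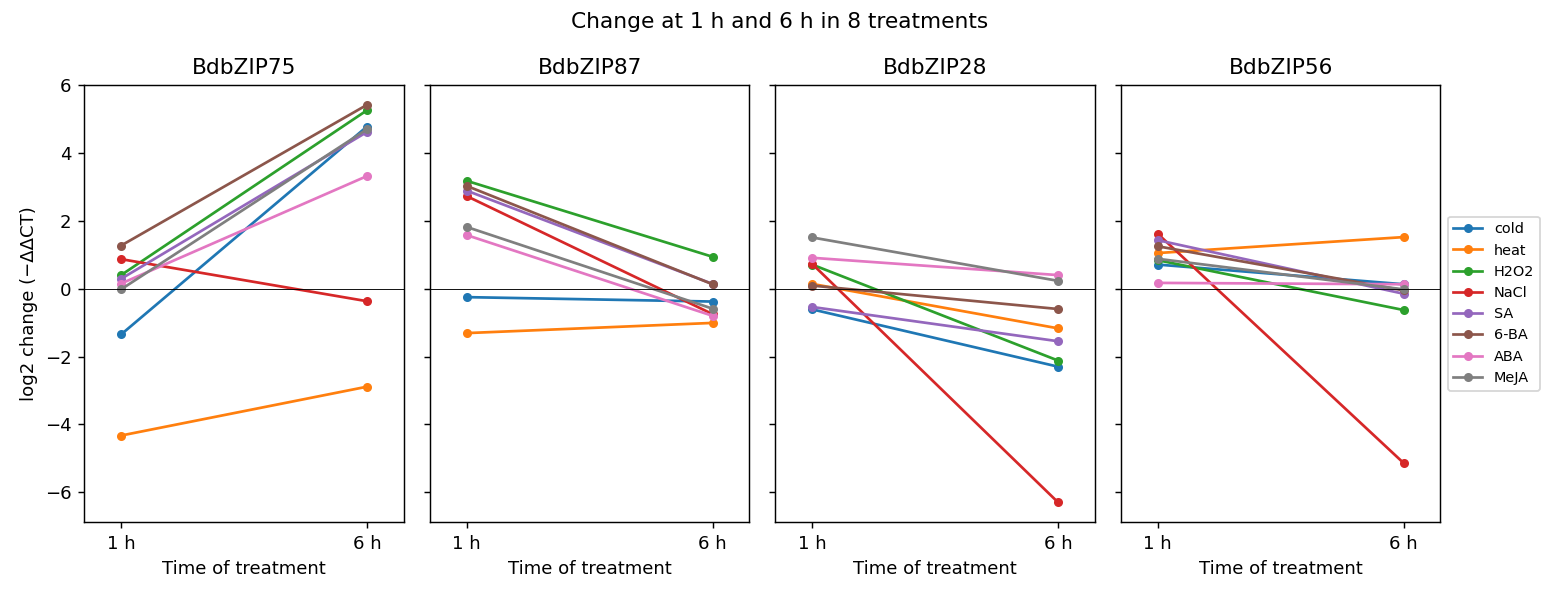
Log2 change (–ΔΔCT, y axis) of BdbZIP75, BdbZIP87, BdbZIP28 and BdbZIP56 at 1 h and 6 h (x axis) in 8 treatments (lines). BdbZIP75 goes up in all lines but NaCl (red), whose 6 h sample has CK3 as its control, and BdbZIP28 goes down in all 8.

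In the organs, set against CK1, the medians over members in root, stem, leaf and spikelet were -0.86, 0.24, 1.89 and 0.20, beside -0.85, 0.19, 1.74 and -0.06 over all genes. At least 2-fold higher were 8 members in root (18.8% of all genes), 12 in stem (30.2%), 26 in leaf (71.9%) and 12 in spikelet (26.0%). At most 0.5-fold were 16, 2, 2 and 10 (46.9%, 9.38%, 9.38% and 28.1%). As the whole panel moved with the organ, and the Ct of BdGAPD ran from 16.54 in root to 19.11 in leaf, values minus the panel median are given beside those against CK1.

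BdbZIP44 was the highest member in every organ, at 3.98 (root), 5.30 (stem), 7.55 (leaf) and 5.36 (spikelet), and BdbZIP66 followed with 3.81, 4.86, 6.98 and 4.93. Minus the panel median, BdbZIP44 kept between 4.83 and 5.81 and BdbZIP66 between 4.66 and 5.24, so both were high against CK1 in all 4 organs. This rests on the naming of the wells: under the naming of the supplementary organ table, BdbZIP44 would be at -2.10, -0.28, 0.32 and -0.67. It also rests on CK1, which is 1 sample of untreated seedlings. Against the mean of the 3 controls, BdbZIP44 was at 1.69, 3.01, 5.26 and 3.07. Its level relative to BdGAPD was -8.44 in CK3, above root (-10.80), stem (-9.48) and spikelet (-9.42). The part of CK1 in values that are high in every organ was not tested. In all, 8 members were at least 2-fold higher in every organ than in CK1 (16.7% of all genes), and BdbZIP94 was the 1 member at most 0.5-fold in every organ (3.12%).

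Differences among organs were largest in BdbZIP43, BdbZIP75, BdbZIP94 and BdbZIP13. BdbZIP43 was lowest in leaf, at -3.09, with -1.83 in root, -0.42 in stem and -1.56 in spikelet, and minus the panel median its leaf value was -4.83 against -1.51 to -0.61 elsewhere. BdbZIP94 was also lowest in leaf, at -2.70, with -2.28, -1.61 and -1.63 in root, stem and spikelet, and its same-primer partner BdbZIP95 gave -2.90 in leaf. Under the other naming the leaf value of BdbZIP43 would be 1.00. These 2 members were the only ones lowest in leaf, and the other 33 members were highest there before the panel median was subtracted, as were most genes of the panel.

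BdbZIP75 was highest in leaf, at 5.90, then stem (3.09), spikelet (1.87) and root (-0.45), and minus the panel median it still spanned 3.76 from root to leaf. BdbZIP13, the lowest member in root at -3.31, had -0.61 in stem, 1.74 in leaf and -2.30 in spikelet. BdbZIP57 was lowest in spikelet (-2.90), with -2.71 in root, -0.91 in stem and 1.00 in leaf. Under the naming of the organ table, BdbZIP13 would be at -0.76 in root and BdbZIP57 at -0.37 in spikelet. For these 5 genes the span over organs minus the panel median ran from 2.11 to 4.22, while BdbZIP39 spanned 0.29, BdbZIP38 0.41, and the HY5-like genes BdbZIP16 and BdbZIP28 0.90 and 0.67. With 1 sample per organ, none of these spans could be tested.

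**Figure D5:**
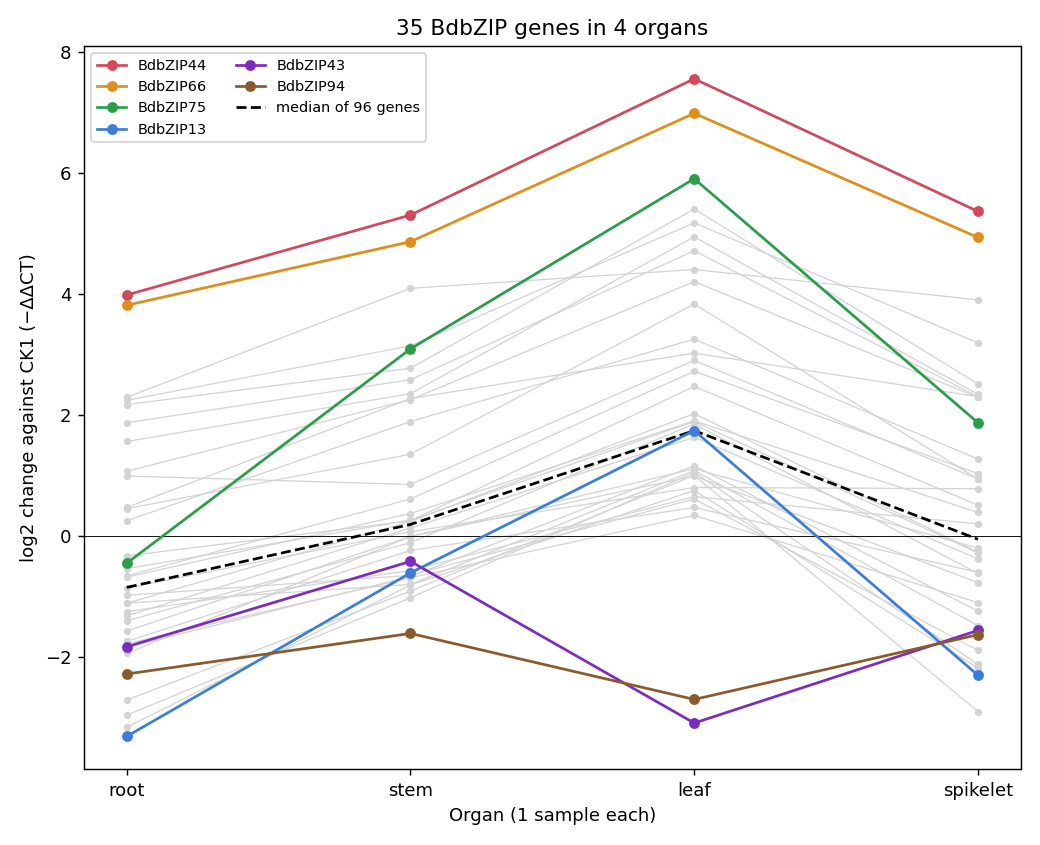
Log2 change against CK1 (–ΔΔCT, y axis) of the 35 genes (grey lines) in root, stem, leaf and spikelet, with 6 genes in colour and the median of all 96 genes as a dashed line. BdbZIP44 and BdbZIP66 run parallel to the median far above it, and BdbZIP43 and BdbZIP94 dip in leaf where the median is at 1.74.

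Likeness between members was measured as Pearson's r of the level minus the panel median over all 34 samples. Of 595 pairs, BdbZIP29 and BdbZIP40 were the most alike (r = 0.89), then BdbZIP39 and BdbZIP73 (0.88) and BdbZIP40 and BdbZIP73 (0.88), followed by the same-primer pair BdbZIP32 and BdbZIP33 (0.87). Without the metal samples and CK3, over 23 samples, the r of these pairs was 0.58, 0.26, 0.28 and 0.63. The first 3 values therefore rest largely on the contrast of the metal samples and CK3 with all others, and the samples share their reference gene and controls.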

How the data were processed

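The authors deposited Ct values, 1 per well and sample and with no normalization (a unit of its own, cycles), for 96 wells and BdGAPD, a second table of expression as a ratio to the reference gene, and a table of fold changes, a ratio to a control. How repeat reactions became 1 Ct is not given in the sources used here. The fold changes were used only to name the wells, since the 28 values of each of the 96 genes equal those of 1 well. Log2 changes (–ΔΔCT) were calculated anew from Ct. Thresholds of 2 and 0.5 are those of the methods, whose p-value needs repeats. A Ct holds no count of molecules, so depth is unknown. Members, gene lists and tests were chosen with earlier results of these data known. Named with values by sample are the 2 highest and 2 lowest members of each class, the extremes of each organ, members past a threshold in all samples of a class, the largest class and time differences, same-primer and overlapping genes, the pattern g gene and the most alike pairs, and others picked with their values in view. Other settings were tried for the base, the reference gene, the naming of wells, the late genes, the source of the values, the time points and the treatments. All per-sample columns were mapped, and PEG 1 h was left out. Calculations were tested on simulated Ct values. Python 3.11.15, numpy 2.4.6, pandas 2.3.3 and matplotlib 3.10.9 were used. No sequence is printed.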

Additional observations from a re-analysis of the deposited data

Results flagged for a closer look

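BdbZIP69, a homologue of OsbZIP68, stood out because all 10 metal samples lay below 0 and all 8 hormone samples above it. Its mean was -1.20 under heavy metals, from -1.90 to -0.14, and 0.57 under phytohormones, from 0.11 to 0.98. The difference of 1.77 over treatments had an exact permutation p of 0.0079 and an adjusted p of 0.0508, which misses the threshold. The classes have different controls and times, and its level was 2.27 higher in CK3 than in CK1. Against the mean of the 3 controls, the means were 0.50 under heavy metals and -0.28 under phytohormones, the opposite order.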

How the results depend on the processing

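Most values depend on the control and the reference gene. Of 945 values, 144 were at least 2-fold higher, against 228 with no reference gene, 235 with the panel median in place of BdGAPD, 82 without genes that reached a Ct of 35, 232 in the deposited normalized table, and 76 and 68 from the first and the second time points alone. At most 0.5-fold were 309, against 201 with the panel median, 192 without late genes, and 127 and 182 from the first and the second times. The member median under environmental factors (-0.38) was 0.55 with no reference gene and 0.26 with the panel median. The metal median (-0.89) was 0.78 with the mean of the 3 controls and 0.11 with the panel median. The hormone median (0.13) was -0.49 with the mean of the controls and -0.70 with no reference gene. With no reference gene the organ medians were 0.50 in root, 1.29 in stem and 0.68 in leaf, and with the panel median -0.23 in stem and -0.05 in leaf. The spikelet median (0.20) was -0.50 with the mean of the controls, -0.28 without late genes and -0.075 in the normalized table. Wells named through the organ table gave -0.01 in stem and -0.07 in spikelet.

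By the exact permutation tests, 0 members differed between metals and environmental factors after adjustment. With the mean of the controls or with no control 22 did (52.1% of all genes with no control). The count was 14 with CK1 for NaCl 6 h, and 4 each with the panel median and without late genes. Between phytohormones and metals, 0 became 20 with the mean of the controls or no control (49.0% of all genes with no control). It became 11 without late genes and 12 in the normalized table. For the other settings no share of all genes is given, so their counts do not set the members against the panel. Fewer genes tested, or controls that no longer differ between classes, are part of these alternatives by construction. Otherwise the cause was not tested.

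With the mean of the controls, 21 of 26 metal means below 0 and 3 of 9 above 0 changed sign, among them BdbZIP28 (0.92), BdbZIP64 (0.96) and BdbZIP76 (-1.25), as did 3 of 23 and 8 of 12 under environmental factors and 3 of 15 and 12 of 20 under phytohormones. No such counts were made over all genes, so these do not set the members against the panel. Of the genes extreme in a class or organ, naming through the organ table turned BdbZIP64 under environmental factors (0.85), BdbZIP60 under metals (-1.17), BdbZIP14 (0.14) and BdbZIP75 (-0.16) under phytohormones, BdbZIP44 in root (-2.10), stem (-0.28) and spikelet (-0.67), BdbZIP94 in stem (1.54) and BdbZIP43 in leaf (1.00). The normalized table turned BdbZIP29 (2.60) and BdbZIP64 (1.07) under environmental factors, BdbZIP29 (2.39), BdbZIP14 (1.94) and BdbZIP75 (-1.64) under phytohormones, and BdbZIP44 in root (-2.17), stem (-0.31) and spikelet (-0.42), BdbZIP94 in stem (1.54) and BdbZIP43 in leaf (1.00). Over genes, that table correlated with –ΔΔCT at r = -0.999 to -0.893 in the environmental and hormone samples, except NaCl 6 h (-0.060). In the metal samples r was 0.998 to 1.000, and in the organs it was 0.022 to 0.146. Its organ values for these genes lay near those under the naming of the organ table, so the 2 settings are not separate there. Leaving out 1 treatment at a time gave 122 to 142 values at least 2-fold higher and 266 to 305 at most 0.5-fold, medians of -0.56 to -0.31, -1.02 to -0.80 and 0.14 to 0.23 for environmental factors, metals and phytohormones, and 0 members in each test. Leaving out NaCl 6 h, or Cd and Pb, was chosen after seeing the data and run only for the counts of values and the median of the class concerned, and moved no count by over 1.5 times. The labels carry no replicate numbers, so no replicate block could be fitted, and the only pairing was that of times within a treatment.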

Other observations

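Within the metals, 24 h and 6 h share the control CK3, which drops out of their difference. Under Cu, 31 of the 35 members were lower at 24 h than at 6 h (median -1.92), beside 81 of 96 genes (median -1.84), and under Mn and Pb 26 and 24 members were, beside 77 and 65 of all genes. Under Zn and Cd 9 and 15 members were lower, beside 29 and 38 of all genes, with member medians of 0.28 and 0.49. BdbZIP21 and BdbZIP69 were lower at 24 h in all 5 metals, with means of -0.65 and -0.77, as were 8 of all 96 genes. BdbZIP66 was higher at 24 h in all 5, by 0.50 in Cu, 0.59 in Zn, 2.65 in Mn, 0.24 in Cd and 0.36 in Pb. BdbZIP58 was higher by 2.55 in Cu and 1.95 in Zn. The Ct of BdGAPD was 20.86 after 6 h and 18.32 after 24 h of Cu, and its part in these differences was not tested.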
